A study of Mus musculus with 2 samples.

Results

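Kainate and delta receptor subunits were followed by their transcripts across the cell types of the embryonic mouse cortex. The group comprised 6 genes, *Grik1*, *Grik2*, *Grik3*, *Grik4*, *Grik5* and *Grid1*, out of 32285 genes in the count tables. Members were taken by gene symbol, and all 6 passed the filter on low counts. The data came from 2 single-cell RNA-sequencing libraries of the cerebral cortex at embryonic day (E) 16.5, both from EomesDot control embryos of WT genotype. There was no mutant or treated group, so each comparison lies between cell types of the same libraries. The labels do not say whether a library held 1 embryo or several, nor do they name the strain, so the spread between the libraries may be technical.

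Kainate receptors are tetrameric ion channels opened by glutamate. *Grik1*, *Grik2* and *Grik3* encode the core subunits GluK1, GluK2 and GluK3, which can form a channel without the accessory subunits. *Grik4* and *Grik5* encode the accessory subunits GluK4 and GluK5, which need a core subunit to reach the surface as a working receptor. Kainate receptors sit on both sides of synapses, where they tune transmitter release and excitability, and they are present on migrating interneurons and progenitors before synapses form. *Grid1* encodes GluD1, a delta receptor that works mainly as a synapse organizer, bridged to presynaptic neurexins by secreted cerebellins.

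All 6 are long genes on different chromosomes. In the RefSeq annotation of GRCm38.p6, the assembly that corresponds to the mm10 build named by the submitters, *Grik1* (ENSMUSG00000022935) spans chr16:87895901-88290863 and *Grik2* (ENSMUSG00000056073) chr10:49093680-49790161. *Grik3* (ENSMUSG00000001985) lies at chr4:125490259-125714173 and *Grik4* (ENSMUSG00000032017) at chr9:42518182-42945000. *Grik5* (ENSMUSG00000003378), the shortest of them at 65.8 kb, occupies chr7:25009849-25075694. *Grid1* (ENSMUSG00000041078), the longest at 763 kb, occupies chr14:34820003-35583387. The span of *Grik5* overlaps the protein-coding gene *Zfp574*, and the other spans overlap only non-coding genes and pseudogenes. UMIs that overlapping genes share cannot be told apart here. The sources do not say whether intronic reads were counted, which weighs most on genes with long introns, so levels are compared for 1 gene across cell types and not between genes.

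Replicate 1 held 46398156 unique molecular identifiers (UMIs) in 9049 barcodes and replicate 2 held 64324236 UMIs in 13556 barcodes. Cells with 1500 to 60000 UMIs and under 10% mitochondrial UMIs numbered 5966 and 10247, with median depths of 5706 and 4938 UMIs. The libraries shared 40 barcodes, of which 21 were among the kept cells of both. Marker genes placed 58.7% and 53.0% of the kept cells in 16 types, named "-like" because the names rest on marker UMIs. The neural types were radial glial cell (RGC)-like, intermediate progenitor cell (IPC)-like, newborn excitatory neuron-like, upper-layer and deep-layer neuron-like, and Cajal-Retzius-like cells. On the GABAergic side they were progenitor-like cells, interneuron-like cells of medial (MGE) or caudal (CGE) ganglionic eminence character, and striatal projection neuron-like cells. Oligodendrocyte precursor-like cells completed the 11 neural types. The striatal and GABAergic progenitor-like cells are of ventral character although the labels name the tissue as cerebral cortex. Endothelial-, mural-, fibroblast-, microglia- and erythroid-like cells served as the non-neural background.

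Levels are given as CPM, the UMIs of a gene per 1000000 UMIs, summed over the cells of a type in each library. The erythroid-like gate set no limit on neuronal marker UMIs. Erythroid-like cells had 171 and 168 CPM of the broad excitatory markers and 185 and 137 CPM of the broad GABAergic markers. No other non-neural type exceeded 64.7 CPM of the former and 40.4 CPM of the latter. Levels in erythroid-like cells may therefore include RNA of neurons. Over all kept cells, the 2 libraries differed little in *Grik1* (52.0 and 51.9 CPM), *Grik3* (72.5 and 69.2 CPM), *Grik5* (49.1 and 48.7 CPM) and *Grid1* (77.2 and 75.5 CPM). *Grik2* reached 571 and 501 CPM and *Grik4* 12.7 and 13.9 CPM. Depending on the gene and library, 41.3% to 62.5% of the UMIs of a member lay in cells that received a type. Cells without a type that carried only GABAergic markers had 239 and 232 CPM of *Grik3*, while those with only excitatory markers had 12.6 and 9.11 CPM. The contrast of *Grik3* between these lineages was therefore also present in cells outside the named types.

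Where the subunits stood highest differed from gene to gene. *Grik1* and *Grik2* peaked in MGE interneuron-like cells, *Grik3* was shared by GABAergic and deep-layer types, *Grik4* and *Grid1* peaked in oligodendrocyte precursor-like cells, and *Grik5* was nearly even across neural types. Between the highest and the lowest of the 11 neural types, mean levels differed 74.2-fold for *Grik1*, 6.21-fold for *Grik2*, 177-fold for *Grik3*, 18.4-fold for *Grik4*, 1.95-fold for *Grik5* and 11.7-fold for *Grid1*. The lowest types of *Grik1* (upper-layer neuron-like) and *Grik3* (RGC-like) did not exceed the level in erythroid-like cells, so the sizes of these 2 spans are not well determined. Without the Cajal-Retzius-like and oligodendrocyte precursor-like cells, of which no library had more than 42, the span of *Grik4* was 4.49-fold and that of *Grid1* 8.83-fold.

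**Figure D1:**
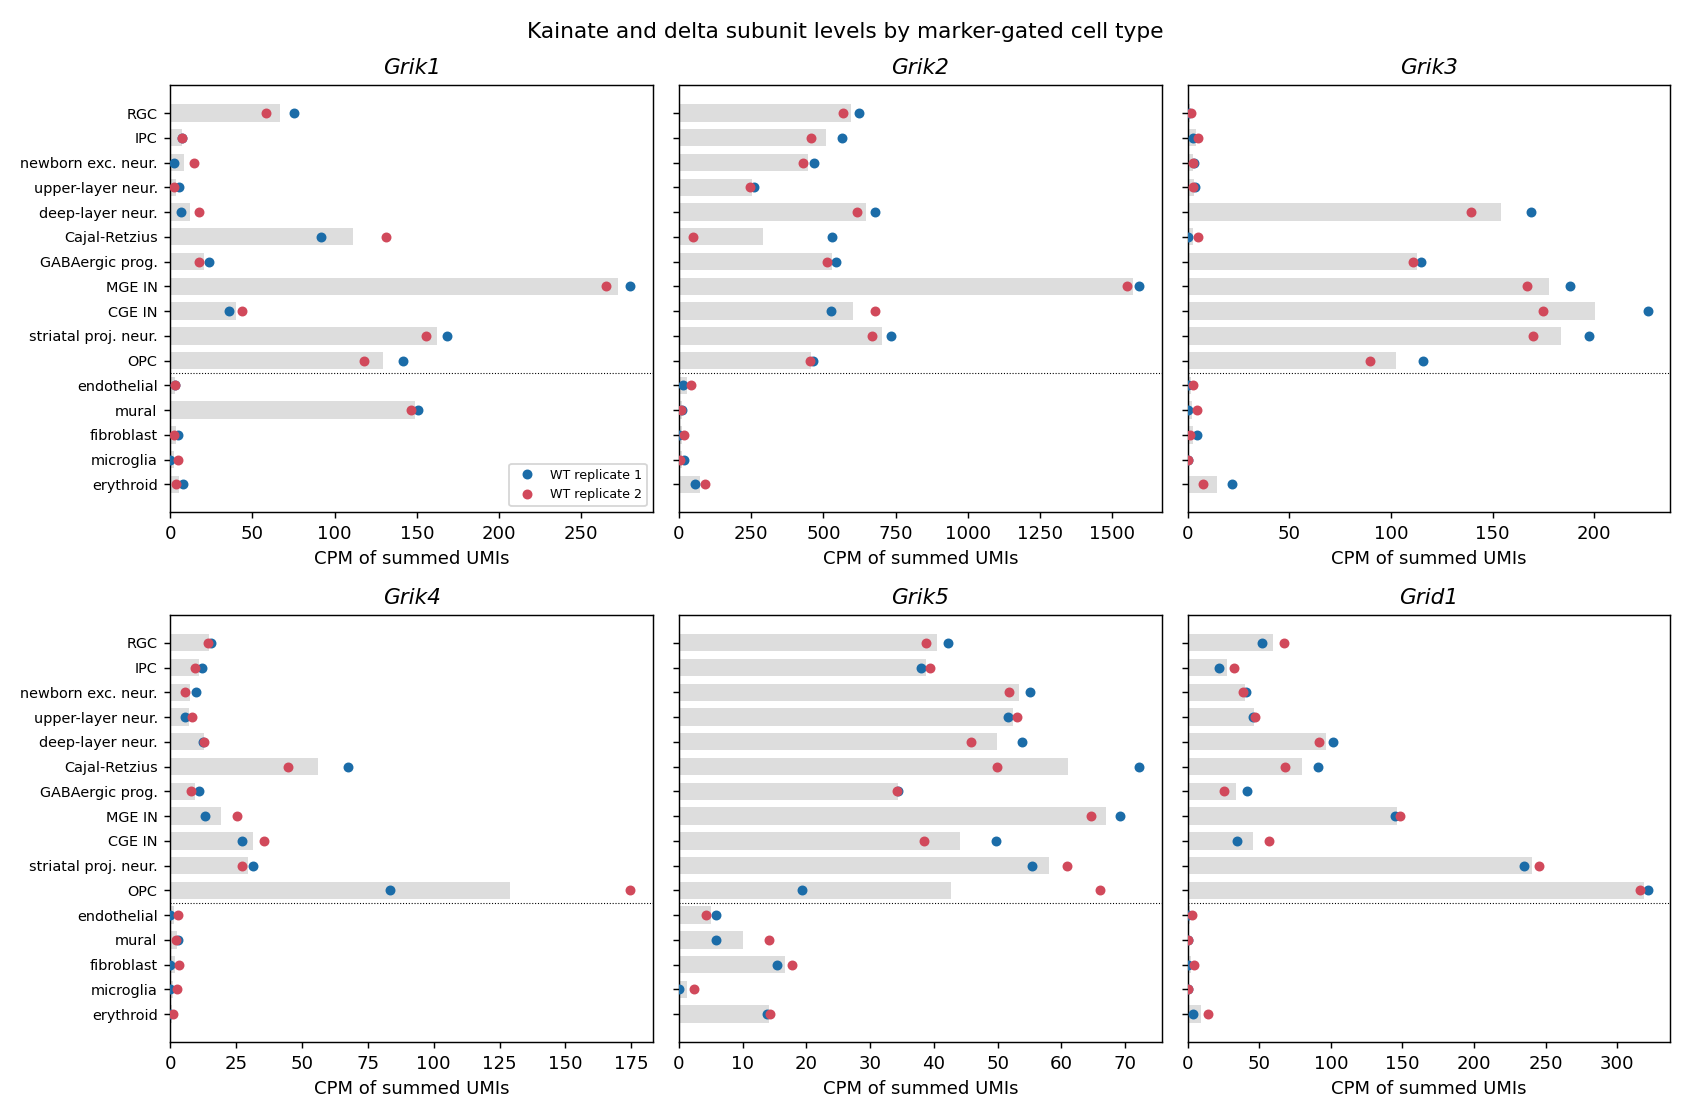
Level of each subunit gene (CPM of summed UMIs, linear axis from 0) in 16 marker-gated cell types. Points are the 2 WT libraries, grey bars their mean, and the dotted line separates neural from non-neural types. *Grik1* and *Grik2* are highest in MGE interneuron-like cells, *Grik3* is near 0 in RGC-, IPC-, newborn and upper-layer neuron-like cells, and the libraries lie far apart for *Grik2* in Cajal-Retzius-like cells.

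*Grik1*, the core subunit GluK1, measured 279.7 and 265 CPM in MGE interneuron-like cells. Striatal projection neuron-like cells followed with 169 and 156 CPM and mural-like cells, the contractile cells of vessel walls, with 151 and 147 CPM. These 3 ranges did not overlap. Oligodendrocyte precursor-like cells (141 and 118 CPM) and Cajal-Retzius-like cells (91.4 and 131 CPM) overlapped each other, and RGC-like cells stood below them at 75.3 and 58.0 CPM. CGE interneuron-like cells had 36.0 and 43.7 CPM and GABAergic progenitor-like cells 23.4 and 17.5 CPM. In IPC-like, newborn, upper-layer and deep-layer cells no library exceeded 17.3 CPM, and these types overlapped with erythroid-like cells at 7.87 and 3.31 CPM. Some of these low totals rested largely on a single cell: 1 newborn neuron-like cell of replicate 2 held 41 of 60 *Grik1* UMIs, and 1 deep-layer neuron-like cell of replicate 2 held 27 of 52.

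The high *Grik1* level of MGE interneuron-like cells came from a minority of them. A *Grik1* UMI was found in 25.9% ± 1.70 (SD, n = 2) of these cells, and such cells held on average 4.67 and 4.04 *Grik1* UMIs. *Grik3* UMIs were found in 44.0% ± 0.684 (SD, n = 2) of the same cells, but with only 1.75 and 1.59 UMIs in each. The single cell with the most *Grik1* held 39 UMIs. *Grik1* UMIs were thus found in fewer cells than *Grik3* UMIs within the same type and at the same depth. Intron counting may weigh unequally on the 2 genes, so this describes UMIs and does not compare their expression.

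*Grik2*, the core subunit GluK2, was found in all neural types. MGE interneuron-like cells measured 1592 and 1551 CPM, above every other type in both libraries. Striatal projection neuron-like cells (735 and 669 CPM), deep-layer neuron-like cells (679 and 618 CPM), CGE interneuron-like cells (528 and 679 CPM) and RGC-like cells (625 and 567 CPM) formed a chain of overlapping neighbours. GABAergic progenitor-like cells (545 and 512 CPM), IPC-like cells (564 and 458 CPM), oligodendrocyte precursor-like cells (463 and 453 CPM) and newborn neuron-like cells (468 and 429 CPM) overlapped their neighbours in turn. Upper-layer neuron-like cells were at 261 and 245 CPM. Non-neural types ranged from 0 to 89.3 CPM, the highest of these values in erythroid-like cells, a type that should lack the gene. In Cajal-Retzius-like cells the libraries disagreed, with 110 UMIs (529 CPM) in 28 cells of replicate 1 and 19 UMIs (49.9 CPM) in 42 cells of replicate 2. Restricted to cells with a UMI of *Trp73*, a Cajal-Retzius marker, the values were 307 and 53.3 CPM in 21 and 38 cells. No level is assigned to that type.

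*Grik3*, the core subunit GluK3, split the types into high and near-empty ones. CGE interneuron-like cells (226 and 175 CPM), striatal projection neuron-like cells (197 and 170.1 CPM), MGE interneuron-like cells (188 and 167 CPM) and deep-layer neuron-like cells (169 and 139.6 CPM) stood in this order in both libraries, although the ranges of neighbours overlapped. GABAergic progenitor-like cells (115 and 111 CPM) and oligodendrocyte precursor-like cells (116 and 89.6 CPM) came next. In contrast, 1 and 5 UMIs were counted in all RGC-like cells together (0.454 and 1.81 CPM), and upper-layer neuron-like cells had 3.69 and 2.41 CPM. IPC-like cells (2.55 and 5.31 CPM) and newborn neuron-like cells (3.22 and 2.40 CPM) were as low. Erythroid-like cells, at 21.6 and 7.72 CPM, were above all 4 of these types, although 1 erythroid-like cell held 5 of the 11 UMIs of replicate 1. The other non-neural types, at 0 to 4.73 CPM, overlapped these 4 types. Their *Grik3* counts were thus not set apart from those of cells that should lack the gene.

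*Grik4*, the accessory subunit GluK4, was measured on few UMIs. In oligodendrocyte precursor-like cells 13 and 37 UMIs gave 83.5 and 175 CPM, and in Cajal-Retzius-like cells 14 and 17 UMIs gave 67.3 and 44.6 CPM. Doublet scores marked 37.0% of the oligodendrocyte precursor-like and 19.0% of the Cajal-Retzius-like cells of replicate 2. Without the marked cells the mean in oligodendrocyte precursor-like cells was 144 CPM for *Grik4*, against 129 CPM with them, and 319 CPM for *Grid1* in both cases. CGE interneuron-like cells (27.4 and 35.7 CPM) and striatal projection neuron-like cells (31.4 and 27.3 CPM) overlapped. MGE interneuron-like cells were at 13.3 and 25.2 CPM, RGC-like cells at 15.4 and 14.1 CPM, and the remaining neural types between 5.51 and 12.96 CPM. No non-neural type exceeded 3.33 CPM.

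*Grik5*, the accessory subunit GluK5, had the smallest span of mean levels of the 6 genes. MGE interneuron-like cells had the highest mean of the neural types, with 69.3 and 64.6 CPM, and GABAergic progenitor-like cells the lowest, with 34.4 and 34.2 CPM. In oligodendrocyte precursor-like cells 3 and 14 UMIs gave 19.3 and 66.0 CPM. Upper-layer (51.7 and 53.0 CPM), deep-layer (53.8 and 45.9 CPM) and newborn (55.1 and 51.8 CPM) neuron-like cells overlapped. RGC-like cells had 42.2 and 38.8 CPM and IPC-like cells 38.0 and 39.4 CPM. Non-neural types stayed at or below 17.8 CPM.

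*Grid1*, the delta subunit GluD1, reached 321 and 316 CPM in oligodendrocyte precursor-like cells. Striatal projection neuron-like cells followed at 235 and 246 CPM, MGE interneuron-like cells at 145 and 148 CPM and deep-layer neuron-like cells at 102 and 92.0 CPM, with no overlap between neighbours in this order. Cajal-Retzius-like cells had 91.4 and 68.3 CPM and RGC-like cells 51.7 and 67.0 CPM. Upper-layer (45.5 and 47.3 CPM), CGE interneuron-like (34.3 and 56.9 CPM), newborn (40.7 and 38.8 CPM) and GABAergic progenitor-like cells (41.8 and 25.3 CPM) overlapped, and IPC-like cells had the lowest mean of the neural types, with 22.0 and 32.4 CPM, overlapping GABAergic progenitor-like cells. Mural- and microglia-like cells held no *Grid1* UMI.

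Because the types differ in depth, each cell was also thinned at random to 1500 UMIs before the share of cells with a UMI was taken. After thinning, 76.8% ± 3.61 (SD, n = 2) of MGE interneuron-like cells held a *Grik2* UMI, against 40.7% ± 4.58 of CGE interneuron-like, 45.5% ± 1.67 of RGC-like, 48.0% ± 3.32 of deep-layer and 25.0% ± 1.70 of upper-layer neuron-like cells (SD, n = 2 each). In erythroid-like cells the share was 5.81% ± 0.808 (SD, n = 2), a type that should lack the gene. Unthinned shares were 89.9% ± 2.03 in MGE interneuron-like cells, at median depths of 3516 and 3762 UMIs, and 57.1% ± 1.27 in the deeper upper-layer neuron-like cells, at 6766 and 5574 UMIs, with 8.404% ± 0.151 in erythroid-like cells at 2825 and 3215 UMIs (SD, n = 2 each). With and without thinning, MGE interneuron-like cells had the highest and upper-layer neuron-like cells the lowest share of these 5 types. No kept cell was too shallow to be thinned.

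The thinned shares of the other core subunits also differed widely between types. A *Grik1* UMI was seen in 16.7% ± 0.595 of MGE interneuron-like, 15.4% ± 1.75 of striatal projection neuron-like, 7.33% ± 0.794 of RGC-like and 0.218% ± 0.309 of erythroid-like cells (SD, n = 2 each). For *Grik3* the shares were 23.9% ± 8.21 in CGE interneuron-like, 18.8% ± 1.04 in deep-layer and 0.531% ± 0.232 in upper-layer neuron-like cells, with 1.36% ± 0.0767 in erythroid-like cells (SD, n = 2 each). *Grid1* was detected in 25.4% ± 2.44 of striatal projection neuron-like and 38.5% ± 2.10 of oligodendrocyte precursor-like cells, against 0.437% ± 0.618 of erythroid-like cells (SD, n = 2 each). Of the accessory subunits, *Grik5* was seen in 11.001% ± 1.93 of MGE interneuron-like and 1.23% ± 0.734 of erythroid-like cells, and *Grik4* in 2.08% ± 0.698 of MGE interneuron-like cells (SD, n = 2 each). No erythroid-like cell held a *Grik4* UMI after thinning, and the exact 95% binomial limits on these 0 shares were 2.58% and 1.60%.

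**Figure D2:**
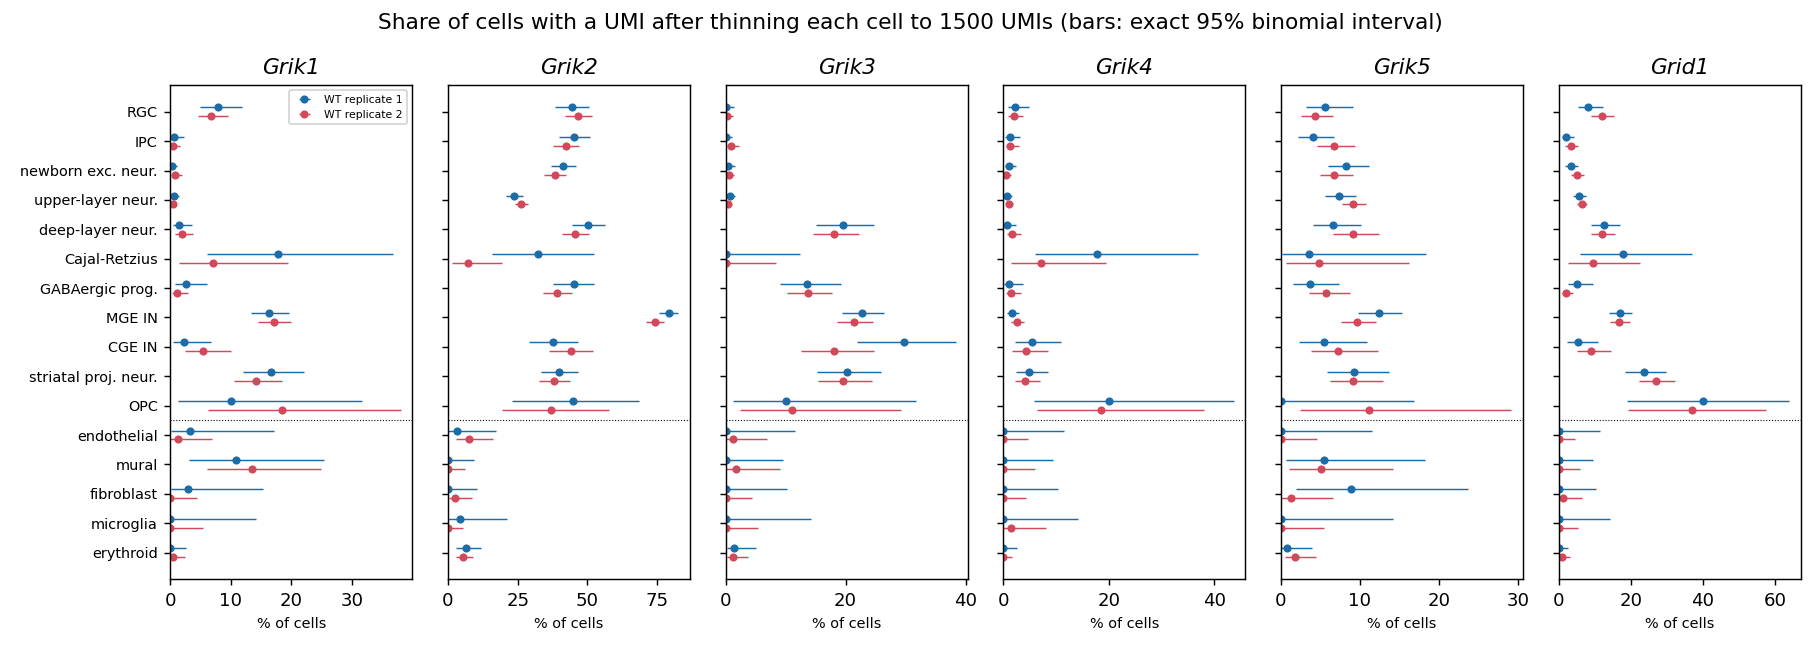
Percentage of cells with at least 1 UMI of each gene after every cell was thinned to 1500 UMIs, by cell type. Points are the 2 WT libraries and bars the exact (Clopper-Pearson) 95% binomial interval, which covers counting error only. *Grik2* was seen in 76.8% of MGE interneuron-like cells on average and in 5.81% of erythroid-like cells, and intervals are wide in the types with few cells.

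Differences between types were tested on the sums per library by edgeR's quasi-likelihood test, blocked by library, with Benjamini-Hochberg adjustment over 14882 genes. A gene was called at an adjusted p under 0.05. The share of all tested genes called in each direction is given with each comparison, since types this different change many genes. The standard error (SE) rests on the spread between 2 libraries left after the library block, pooled over all 32 sums of the fit. It does not rest on counted embryos. Types outside a comparison also enter its SE, among them Cajal-Retzius-like cells, in which the libraries disagreed on *Grik2*. With only the compared types fitted, the SE of *Grik2* in RGC-like against excitatory neuron-like cells was 0.057 instead of 0.176. That of *Grik5* in MGE against CGE types was 0.217 instead of 0.209.

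The first comparison set GABAergic interneuron-like cells (the mean of MGE and CGE types on the log scale) against excitatory neurons (the mean of upper- and deep-layer types). Of the 6 genes, 4 were higher in interneurons and none was lower, whereas 12.9% of all tested genes were higher and 16.5% lower. The core subunits *Grik1* (log2 fold change 3.93 ± 0.31 SE, adjusted p = 1.9e-14), *Grik3* (3.07 ± 0.13 SE, adjusted p = 7.0e-23) and *Grik2* (1.22 ± 0.15 SE, adjusted p = 9.8e-09) and the accessory subunit *Grik4* (1.33 ± 0.25 SE, adjusted p = 3.1e-05) were the called genes. *Grik5* (0.02 ± 0.13 SE) and *Grid1* (0.25 ± 0.15 SE) did not pass the test. The *Grik3* difference is an average of unequal parts, because deep-layer neuron-like cells were close to interneurons and upper-layer cells were near 0. For *Grik2* too, CGE interneuron-like cells (528 and 679 CPM) were not above deep-layer neuron-like cells (679 and 618 CPM).

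MGE and CGE interneuron-like cells differed in 4 of the 6 genes, all higher in the MGE type. Over all tested genes only 2.86% were higher and 2.02% lower. *Grik1* differed most (log2 fold change 2.82 ± 0.28 SE, adjusted p = 1.5e-10), followed by *Grid1* (1.71 ± 0.23 SE, adjusted p = 3.3e-07) and *Grik2* (1.43 ± 0.22 SE, adjusted p = 5.7e-06). *Grik5* was close to the threshold (0.68 ± 0.21 SE, adjusted p = 0.045) and lost its call under 8 of 10 alternative settings. *Grik3* (-0.10 ± 0.15 SE) and *Grik4* (-0.64 ± 0.36 SE) did not pass the test. DESeq2 did not call *Grik2* here (1.35, adjusted p = 0.303).

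**Figure D3:**
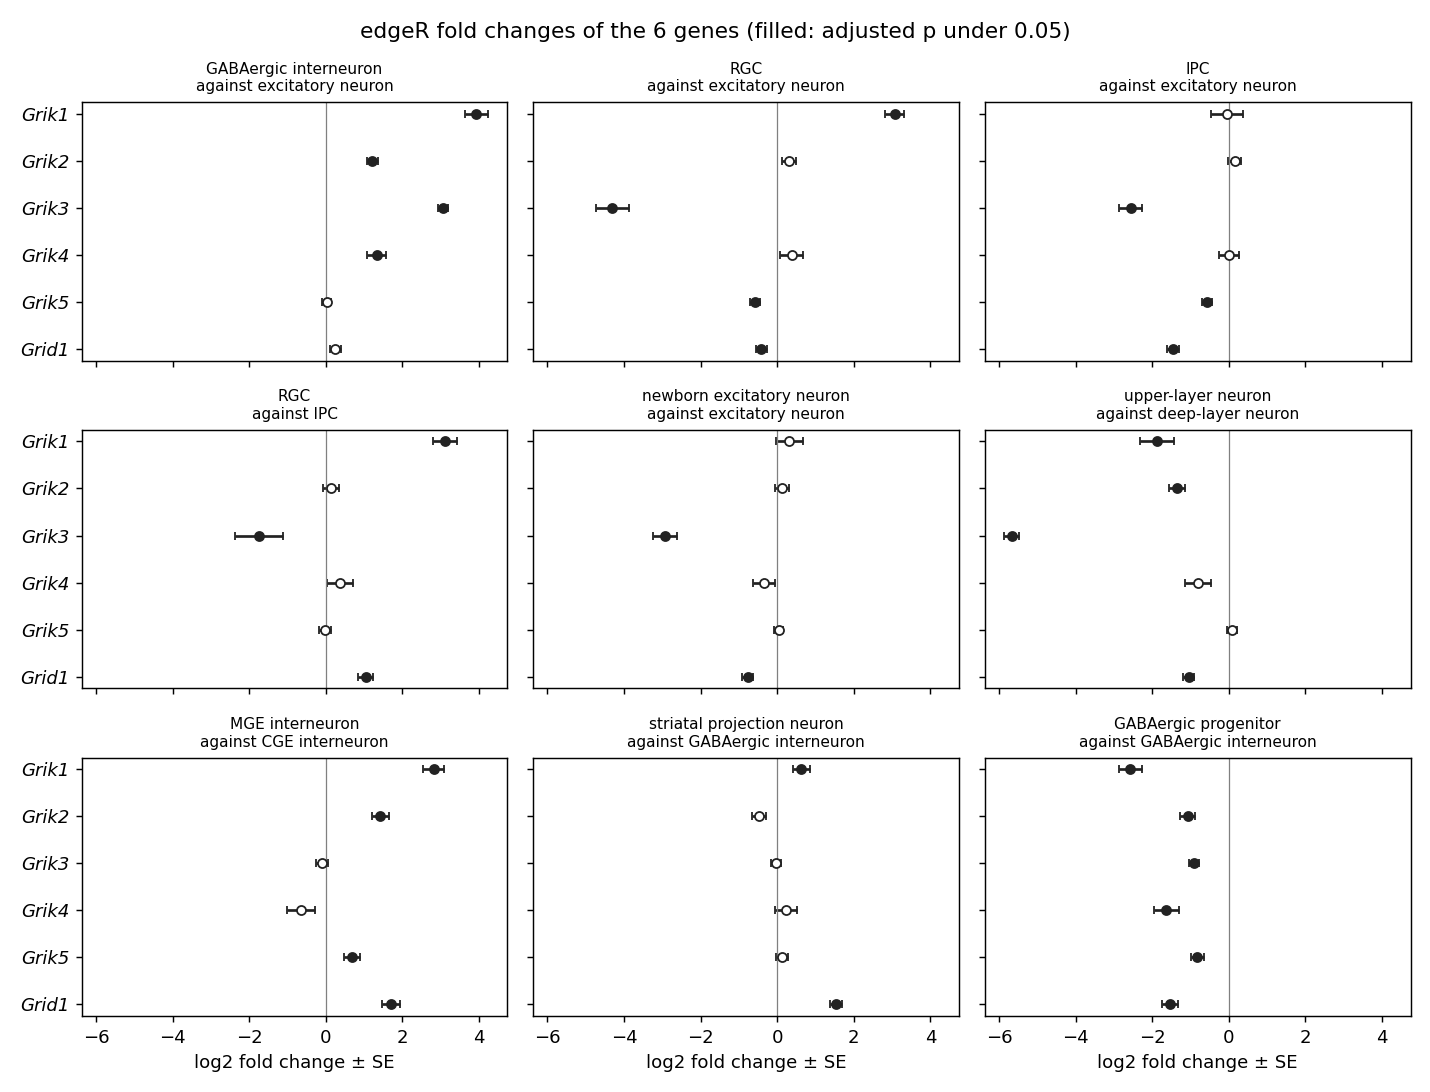
log2 fold change with its standard error for the 6 genes in 9 comparisons between cell types (edgeR, first-named type over second). Filled points have an adjusted p under 0.05. All 4 called genes lie to the right of 0 for MGE over CGE interneuron-like cells, and all 6 genes lie to the left of 0 for GABAergic progenitor-like over interneuron-like cells.

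Within excitatory neurons, 4 of the 6 genes were lower in upper-layer than in deep-layer neuron-like cells and none was higher, against 5.75% of all tested genes higher and 9.17% lower. The difference of *Grik3* was the largest of any member in any of the 9 comparisons (log2 fold change -5.67 ± 0.20 SE, adjusted p = 4.0e-25). Its upper-layer level (3.69 and 2.41 CPM) was below that of erythroid-like cells (21.6 and 7.72 CPM), so the size of this fold change is not well determined. *Grik2* (-1.35 ± 0.21 SE, adjusted p = 1.8e-06) and *Grid1* (-1.05 ± 0.15 SE, adjusted p = 6.3e-07) were also lower. DESeq2 did not call *Grik2* (-1.43, adjusted p = 0.123). *Grik1* was called (-1.87 ± 0.43 SE, adjusted p = 0.00124), but this rested on replicate 2, with a log2 difference of -0.36 in replicate 1 alone and -2.48 in replicate 2 alone on the log2(CPM + 1) scale. In that library 51.9% of the deep-layer *Grik1* UMIs came from 1 cell, without whose *Grik1* UMIs the deep-layer level was 8.31 CPM. *Grik5* (0.09 ± 0.13 SE) and *Grik4* (-0.80 ± 0.33 SE) did not pass the test.

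Progenitors of the excitatory lineage were compared next. RGCs divide at the ventricle and give rise to IPCs, which produce most excitatory neurons. RGC-like cells had *Grik1* at a higher level than excitatory neuron-like cells (log2 fold change 3.07 ± 0.25 SE, adjusted p = 1.6e-14), and this was the only member higher, against 27.1% of all tested genes. Lower were *Grik3* (-4.31 ± 0.43 SE, adjusted p = 8.3e-12), *Grik5* (-0.59 ± 0.13 SE, adjusted p = 1.9e-04) and *Grid1* (-0.42 ± 0.15 SE, adjusted p = 0.0131), against 33.1% of all tested genes. The *Grid1* call did not hold: replicate 2 alone gave a log2 difference of 0.02, thinned cells gave 0.32, and 4 further alternatives lost it. The single-library values of *Grik3* were -4.28 in replicate 1 and -2.96 in replicate 2, and those of *Grik5*, on unadjusted CPM, were -0.32 and -0.34. RGC-like cells (0.454 and 1.81 CPM of *Grik3*) and upper-layer cells (3.69 and 2.41 CPM) were both below erythroid-like cells. The *Grik3* difference thus lay against the deep-layer type, at 169 and 139.6 CPM. *Grik2* (0.30 ± 0.18 SE, adjusted p = 0.138) did not pass but was called, at 0.35 to 0.52, under 6 of 10 alternatives.

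IPC-like cells were lower than excitatory neuron-like cells in *Grik3* (log2 fold change -2.56 ± 0.30 SE, adjusted p = 1.4e-09), *Grid1* (-1.46 ± 0.16 SE, adjusted p = 2.4e-10) and *Grik5* (-0.57 ± 0.13 SE, adjusted p = 1.8e-04). No member was higher, against 21.6% of all tested genes higher and 28.1% lower. For *Grik3* the single-library values were -2.99 and -1.79, and doublet removal gave -4.44. IPC-like cells (2.55 and 5.31 CPM of *Grik3*) overlapped upper-layer cells (3.69 and 2.41 CPM), and both were below erythroid-like cells. The *Grik3* difference thus lay against the deep-layer type, at 169 and 139.6 CPM. *Grik5* lost its call with thinned cells at a similar fold change and a larger SE (-0.56 ± 0.26 SE, adjusted p = 0.0805), and its log2 fold change was -0.38 in deeper cells and -0.32 in replicate 2 alone. *Grik1*, *Grik2* and *Grik4* did not pass, with log2 fold changes from -0.04 to 0.16.

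Set against each other, RGC-like cells exceeded IPC-like cells in *Grik1* (log2 fold change 3.12 ± 0.31 SE, adjusted p = 3.3e-11) and *Grid1* (1.04 ± 0.19 SE, adjusted p = 2.7e-05, and 2.08 with thinned cells). Over all tested genes, 18.2% were higher and 16.5% lower. *Grik3* was called lower in RGC-like cells (-1.75 ± 0.63 SE, adjusted p = 0.0265), but on 6 and 27 UMIs in all, at levels below those of erythroid-like cells, and the sign turned to 0.14 with doublets removed. *Grik2*, *Grik4* and *Grik5* did not pass.

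Newborn excitatory neuron-like cells differed from the later excitatory types in 2 genes, both lower. These were *Grik3* (log2 fold change -2.93 ± 0.31 SE, adjusted p = 6.7e-10) and *Grid1* (-0.77 ± 0.14 SE, adjusted p = 5.8e-05), against 8.35% of all tested genes higher and 10.3% lower. *Grik2* (0.12 ± 0.18 SE) and *Grik5* (0.04 ± 0.11 SE) did not pass. Since *Grik3* in upper-layer neuron-like cells was as low as in newborn ones, the excess lay in the deep-layer type.

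Among GABAergic types, progenitor-like cells were lower than the mean of the MGE and CGE interneuron-like types in all 6 genes, against 16.5% of all tested genes higher and 22.4% lower. For *Grik2* and *Grid1* this lay in the MGE type. Progenitor-like cells overlapped CGE interneuron-like cells in *Grik2* (545 and 512 against 528 and 679 CPM) and in *Grid1* (41.8 and 25.3 against 34.3 and 56.9 CPM). *Grik1* differed most (log2 fold change -2.57 ± 0.31 SE, adjusted p = 2.5e-09), then *Grik4* (-1.63 ± 0.34 SE, adjusted p = 1.2e-04) and *Grid1* (-1.54 ± 0.21 SE, adjusted p = 8.4e-08). *Grik2* (-1.07 ± 0.19 SE, adjusted p = 1.1e-05), *Grik3* (-0.90 ± 0.13 SE, adjusted p = 1.6e-07) and *Grik5* (-0.82 ± 0.17 SE, adjusted p = 1.4e-04) were lower by less. The libraries were unequal for *Grik4*, at -0.74 in replicate 1 and -1.83 in replicate 2, for *Grid1*, at -0.74 and -1.82, and for *Grik5*, at -0.75 and -0.53. DESeq2 did not call *Grik2* (-1.03, adjusted p = 0.119), and with thinned cells *Grik4* (-1.05 ± 0.55 SE, adjusted p = 0.16) and *Grik5* (-0.81 ± 0.34 SE, adjusted p = 0.0639) lost their calls, the latter at nearly the same fold change with a larger SE. Requiring 1 more marker gene, chosen after seeing the data, kept the calls of *Grik2* and *Grik3* at -0.58 and -0.59. Doublet scores removed 13.6% and 15.5% of the GABAergic progenitor-like cells, and without them *Grik1* was at 6.22 CPM there instead of 20.4 CPM and its log2 fold change was -4.27 ± 0.36 SE (adjusted p = 1.5e-13), and *Grid1* was at 21.3 CPM instead of 33.5 CPM.

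Striatal projection neurons, the output cells of the striatum, differed from interneuron-like cells in 2 genes. *Grid1* was higher (log2 fold change 1.54 ± 0.15 SE, adjusted p = 8.4e-11), and *Grik1* was called at 0.63 ± 0.21 SE (adjusted p = 0.0422). Over all tested genes, 6.56% were higher and 5.73% lower. The *Grik1* call was lost with size factors (0.61, adjusted p = 0.0546), in DESeq2 (0.62, adjusted p = 0.476), without the replicate block (0.63, adjusted p = 0.0647) and in deeper cells (0.86, adjusted p = 0.0717), with fold changes close to or above the 0.63 given first. The MGE type, at 279.7 and 265 CPM, was above striatal projection neuron-like cells while the CGE type was below them. *Grik2* (-0.48 ± 0.19 SE, adjusted p = 0.0954) was called lower under 5 of 10 alternatives.

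Some types were divided further by UMIs of marker genes. These divisions were chosen after the levels had been seen, and no test was made of them. Within MGE interneuron-like cells, 141 and 139 cells held a UMI of *Sst*, the neuropeptide of SST+ cortical interneurons. *Grik1* stood at 480 and 549 CPM in them and at 208 and 192 CPM in the 425 and 598 cells without one. *Grik2* was at 1804 and 1902 CPM with *Sst* and 1517 and 1460 CPM without. *Grik4* was at 24.4 and 54.4 CPM with and 9.28 and 17.7 CPM without, on at most 43 UMIs a library and side. *Grik3* (203 and 181 against 183 and 163 CPM) and *Grik5* (68.4 and 64.0 against 69.6 and 64.7 CPM) overlapped. *Grid1* was at 220 and 149 CPM with *Sst* and 118 and 148 CPM without, a difference in replicate 1 alone. Whether *Sst* UMIs from other cells entered this division was not tested.

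A second division of the same type used *Nkx2-1*, a transcription factor that cortical interneurons switch off when they leave the MGE. *Grik1* was at 52.3 and 48.7 CPM in the 92 and 78 cells that held a *Nkx2-1* UMI and at 341 and 295 CPM in the others. *Grik2* was at 1059 and 1122 CPM with *Nkx2-1* and 1736 and 1610 CPM without. *Grid1* was at 80.5 and 56.8 CPM with and 162 and 161 CPM without. All 3 genes were thus lower in cells that kept *Nkx2-1*, in both libraries. Those cells were deeper, with median depths of 5288 and 4646.5 UMIs against 3346 and 3594, and the part of depth was not tested. By a UMI of *Maf*, another marker of the type, *Grik1* was at 290 and 289 CPM with and 255 and 181 CPM without. *Grik2* (1713 and 1575 against 1314 and 1465 CPM) and *Grik3* (204 and 172 against 152 and 147 CPM) were also higher with *Maf*. *Grik4* was lower with it (7.37 and 17.7 against 26.8 and 52.0 CPM).

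In striatal projection neuron-like cells the division by *Drd2*, the dopamine receptor of the indirect pathway, went with opposite differences among the core subunits. *Grik3* was at 518 and 499.8 CPM in the 56 and 71 cells with a *Drd2* UMI and at 105 and 73.8 CPM in the 172 and 246 cells without. *Grik2* differed the other way, at 240.4 and 387 CPM with *Drd2* and 877 and 751 CPM without, and so did *Grik1*, at 70.3 and 90.6 against 197 and 175 CPM. *Grik4* was at 66.6 and 43.9 CPM with *Drd2* and at 21.3 and 22.5 CPM without, on at most 28 UMIs a library and side. Median depths were 4260.5 and 4437 UMIs with *Drd2* and 4864 and 4677 without. *Grid1* was lower with *Drd2* in both libraries by unequal amounts, at 141 and 225 CPM with it and 262 and 252 CPM without. *Grik5* was at 74.0 and 54.9 against 50.01 and 62.5 CPM, and its direction differed between the libraries.

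RGC-like cells were divided by 5 cell cycle genes into those with UMIs of at least 2 of them and those with none. *Grik1* was at 104 and 77.2 CPM in the 130 and 183 cycling cells and at 37.2 and 38.7 CPM in the 100 and 183 others. *Grid1* went the other way, with 37.6 and 46.0 CPM in cycling cells and 81.9 and 84.3 CPM in the others, and *Grik4* as well, with 3.997 and 7.02 against 43.2 and 22.8 CPM. *Grik2* (545 and 532 against 780.4 and 560.1 CPM) was lower in cycling cells of both libraries by unequal amounts. Cycling RGC-like cells had median depths of 9050.5 and 6012 UMIs and the others 5585 and 4678, and the part of depth was not tested. In IPC-like cells divided the same way, *Grik2* was at 381 and 371 CPM in the 55 and 113 cycling cells and at 649 and 504 CPM in the 214 and 269 others. The cycling IPC-like cells were deeper, with medians of 13852 and 9234 UMIs against 8430.5 and 7183.

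**Figure D4:**
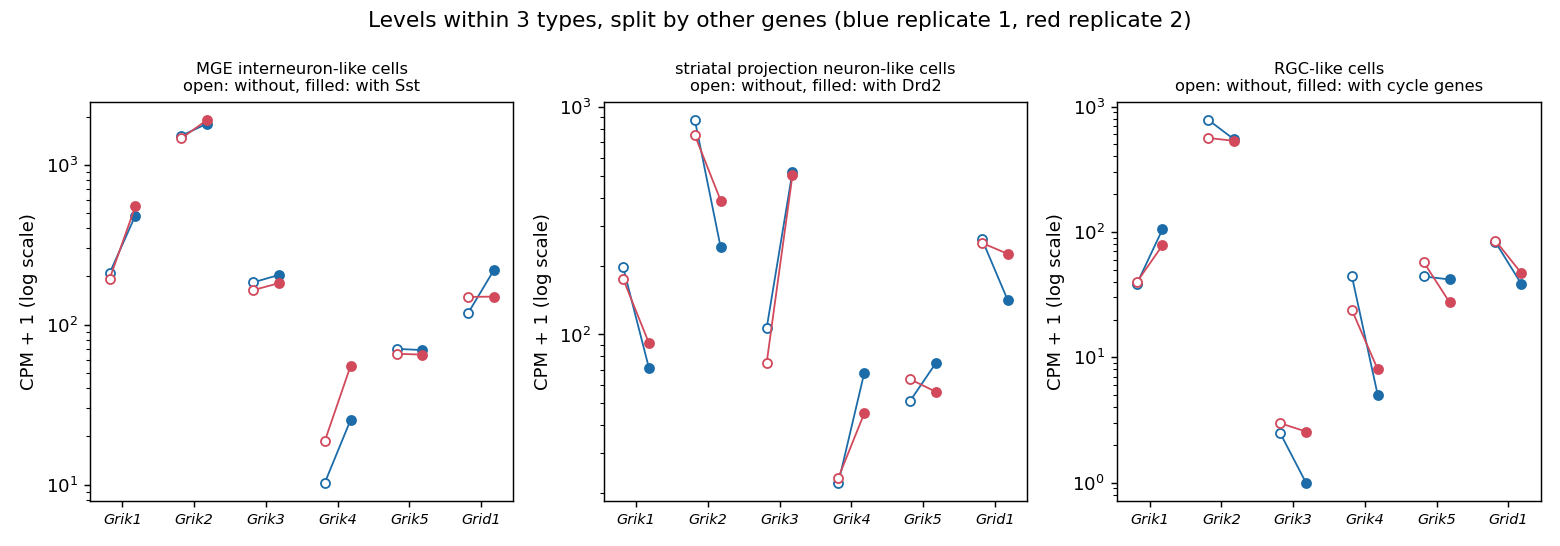
Levels of the 6 genes (CPM + 1, log axis) inside 3 cell types divided by a UMI of *Sst*, a UMI of *Drd2*, or UMIs of at least 2 of 5 cell cycle genes. Open points are cells without and filled points cells with the dividing gene, joined within a library (blue replicate 1, red replicate 2). In striatal projection neuron-like cells *Grik3* is at 518 and 499.8 CPM with *Drd2* against 105 and 73.8 CPM without, while *Grik2* and *Grik1* are lower with *Drd2* in both libraries.

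The partners of the receptors came from a list of 24 genes, of which 23 were in the tables and 22 passed the filter on low counts. *Neto1* and *Neto2* encode auxiliary subunits that slow the closing of kainate receptors. *Neto1* was at 293 and 270.2 CPM in MGE interneuron-like cells, 147 and 132 CPM in striatal projection neuron-like cells and 283 and 193 CPM in oligodendrocyte precursor-like cells. It was at 20.6 and 9.27 CPM in CGE interneuron-like cells and at or below 5.08 CPM in every library of the RGC-, IPC-, newborn, upper- and deep-layer cells. It was higher in the MGE than in the CGE type (log2 fold change 4.36 ± 0.28 SE, adjusted p = 2.8e-16). *Neto2* instead was highest in deep-layer neuron-like cells, at 315 and 267 CPM, and was lower in upper-layer cells (-1.59 ± 0.12 SE, adjusted p = 1.4e-14), with 98.9 and 92.9 CPM.

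Of the 22 partners tested, 6 were higher and 7 lower in interneurons than in excitatory neurons, with a median log2 fold change of 0.08 against 1.27 for the 6 subunits and -0.06 for all genes. Over all tested genes, 12.9% were higher and 16.5% lower. *Nrxn3* (log2 fold change 8.29 ± 0.18 SE, adjusted p = 1.3e-34), a neurexin, and *Grip1* (2.52 ± 0.09 SE, adjusted p = 2.8e-26), a scaffold that binds kainate and AMPA receptors, were among the higher genes, as was *Neto1* (4.58 ± 0.42 SE, adjusted p = 2.7e-12). *Adarb1* (-0.69 ± 0.19 SE, adjusted p = 0.0035), an enzyme that edits glutamate receptor transcripts, was lower. RGC-like cells had 2 partners higher and 14 lower than excitatory neurons, against 27.1% and 33.1% of all tested genes. IPC-like cells had 1 higher and 12 lower, against 21.6% and 28.1% of all tested genes. *Nrxn2* and *Adarb1* were lower and *Nrxn3* higher in both progenitor types, and *Adarb1* differed by -2.14 ± 0.23 SE for RGC-like cells (adjusted p = 4.8e-11) and by -1.73 ± 0.20 SE for IPC-like ones (adjusted p = 4.8e-10). *Nrxn3* was at 519 and 608 CPM in erythroid-like cells, a type that should lack it, above the 230 and 298 CPM of RGC-like cells. Its level in progenitors thus did not exceed that of erythroid-like cells, which also carried neuronal marker UMIs.

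Of the partners, 6 were lower and none higher in upper- than in deep-layer neuron-like cells, against 9.17% of all tested genes lower and 5.75% higher. Among them were *C1ql3* (log2 fold change -3.81 ± 0.50 SE, adjusted p = 1.2e-07), a secreted ligand of the C1q family, and the scaffold *Cask* (-0.67 ± 0.11 SE, adjusted p = 1.4e-05). *Nrxn3* was also called (-1.73 ± 0.25 SE, adjusted p = 4.7e-07), but its means of 27.4 CPM in upper-layer and 92.1 CPM in deep-layer cells were both below the level in erythroid-like cells. Between MGE and CGE types 3 partners were higher, *Neto1* and *Neto2* (0.57 ± 0.18 SE, adjusted p = 0.0478) among them, and 1 was lower, *Grip1* (-0.45 ± 0.12 SE, adjusted p = 0.0163). In striatal projection neuron-like cells 4 partners were higher and 4 lower than in interneurons, with *Grip1* (-2.35 ± 0.12 SE), *Nrxn3* (-1.24 ± 0.16 SE) and *Sdcbp* (-0.64 ± 0.18 SE, adjusted p = 0.0119) lower and *Neto1* (1.14 ± 0.21 SE, adjusted p = 9.1e-05) higher. GABAergic progenitor-like cells had 12 partners lower and none higher than interneurons, among them *Grip1* (-2.67 ± 0.12 SE), *Nrxn2* (-1.80 ± 0.15 SE) and *Nrxn3* (-1.17 ± 0.16 SE). Newborn neuron-like cells had 4 lower and none higher, *Neto2*, *Nrxn2* and *Adarb1* among them. RGC-like cells had 2 higher and 5 lower than IPC-like cells, and the scaffolds *Dlg3* (-0.77 ± 0.21 SE, adjusted p = 0.00273), *Dlg4* (-0.64 ± 0.19 SE, adjusted p = 0.00675) and *Pick1* (-0.56 ± 0.19 SE, adjusted p = 0.0208) were among the lower ones. Of all tested genes, 2.86% were higher and 2.02% lower for MGE against CGE types, and 6.56% and 5.73% for striatal projection neuron-like cells against interneurons. The shares were 16.5% and 22.4% for GABAergic progenitor-like cells against interneurons, 8.35% and 10.3% for newborn against later excitatory neurons, and 18.2% and 16.5% for RGC-like against IPC-like cells.

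For reference, 18 AMPA, NMDA and metabotropic glutamate receptor genes were counted in the same fit, of which 17 were tested. In interneurons 5 were higher and 5 lower than in excitatory neurons, where the kainate and delta subunits had 4 and 0. In RGC-like cells 1 was higher and 11 lower than in excitatory neurons, with a median log2 fold change of -2.31, and in IPC-like cells 1 and 13, with a median of -1.84. The medians of the 6 kainate and delta subunits in these comparisons were -0.06 and -0.31, beside -0.11 and -0.10 for all genes. In GABAergic progenitor-like cells 1 of the reference genes was higher and 12 were lower than in interneurons (median -2.71), beside a median of -1.30 for the 6 subunits. These are counts and medians without a test of the difference between the lists. Of all tested genes, 12.9% were higher and 16.5% lower in interneurons than in excitatory neurons. The shares were 27.1% and 33.1% for RGC-like, 21.6% and 28.1% for IPC-like and 16.5% and 22.4% for GABAergic progenitor-like cells.

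Genes with the most similar profiles were sought among 5996 genes with at least 50 CPM in some neural type, by Pearson correlation of log2(CPM + 1) over the 11 neural types. The points share libraries and depth, and the coefficients are descriptive. *Grik1* was closest to *Spats2l* (r = 0.974), *Syne1* (r = 0.907) and *Gm15398* (r = 0.905), and *Spats2l* was itself highest in MGE interneuron-like cells at 175 CPM and lowest in upper-layer neuron-like cells at 4.32 CPM. The *Grik2* values include the mean of the Cajal-Retzius-like cells, on which the libraries disagreed. For *Grik2* the nearest were *Cog5* (r = 0.827), *Nxph2* (r = 0.810) and *Ackr3* (r = 0.806), for *Grik3* *Lmo3* (r = 0.911), *Brinp1* (r = 0.882) and *Ppp2r2a* (r = 0.873). *Grik4* was nearest to *Ltn1* (r = 0.982), *Ubl3* (r = 0.935) and *Vwc2* (r = 0.935), *Grik5* to *Arl8b* (r = 0.962), *Erc2* (r = 0.873) and *Gm12709* (r = 0.871), and *Grid1* to *Mdn1* (r = 0.952), *Sema6d* (r = 0.907) and *Susd4* (r = 0.900). The oligodendrocyte precursor-like and Cajal-Retzius-like points rest on 20 to 42 cells a library. Among the subunits themselves, *Grid1* and *Grik1* were the most alike (r = 0.741) and *Grik2* and *Grik4* the least (r = 0.004).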

How the data were processed

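The authors deposited raw UMI counts per gene and barcode of 2 WT libraries (10x Genomics 3' v3.1), made with Cell Ranger, version 7.0.0 per the labels and 7.1.0 per the file headers, on mm10. Whether introns were counted is not given in the sources used here. The members, lists and gates were chosen with earlier results of these data known. Cells were gated on raw UMIs of marker lists without the values of the 6 subunit genes. A neuronal gate needed at least 4 UMIs from 2 genes of its broad excitatory or GABAergic list, at most 1 UMI of the other, and at least 3 genes and 4 UMIs of its own list. The Cajal-Retzius-like gate used its own list and at most 1 UMI of the GABAergic list, without the broad excitatory list. Upper- and deep-layer cells needed at least 2 more genes of their own list than of the other. MGE, CGE and striatal cells needed more genes of their own list than of each other's. RGC-like cells needed 4 genes and erythroid-like cells at least 20% globin UMIs. Types with fewer than 20 cells in a library, subplate neuron-like cells among them, were not reported. UMIs were summed per type and library, and 32 sums entered 1 fit in edgeR 4.0.16 (R 4.3.3) with TMM, a minimum of 10 counts per gene in 2 or more sums, and a block for library, since the types compared come from the same libraries. The SE is the fold change divided by the square root of F. Doublets were scored by Scrublet in scanpy 1.11.5 and kept in the main values, and removing the highest scores (432 and 1111 cells, at 0.8% per 1000 barcodes) was an alternative. The code was tested on simulated data. Partner genes named were *Neto1* and *Neto2* and up to 4 further called genes per comparison with the largest change, at least 10 CPM and the same direction in both libraries. Gene positions are from RefSeq, GRCm38.p6. No sequence is shown. Some partner genes that this rule names are not reported here.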

Additional observations from a re-analysis of the deposited data

How the results depend on the processing

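Of 54 member fold changes, 32 were called. Over 10 alternatives (DESeq2 1.42.0, size factors, no low-count filter, no replicate block, only the compared types, doublets removed, stricter gates, thinned or deeper cells), 10 called values lost their call under at least 1 and 6 others gained one. The stricter gate with 1 more marker gene was chosen after seeing the data. MGE against CGE, DESeq2 called 2 members instead of 4. For striatal projection neurons against interneurons, 1 member was called instead of 2 with size factors, in DESeq2 and without the replicate block, and without the block no other call changed. *Grid1* in RGC-like against excitatory cells reversed to 0.32 with thinned cells and ranged from -0.39 to 0.02 over single libraries (0.022 without replicate 1), and *Grik3* in RGC-like against IPC-like cells reversed to 0.14 with doublets removed. The cause was not tested. Leaving out a replicate left 1 sum a type, so it gave values without a test. Size factors in place of TMM moved the median of all genes by 0.12 for RGC-like against excitatory and 0.10 for RGC-like against IPC-like cells. For upper- against deep-layer cells they gave 28.1% of called genes higher instead of 38.5%, and DESeq2 gave 27.9%. For MGE against CGE types DESeq2 gave 45.3% instead of 58.7%. For interneurons against excitatory neurons it gave 53.7% instead of 43.9%, and size factors gave 50.9%. For RGC-like against IPC-like cells size factors gave 62.4% and DESeq2 61.3% instead of 52.4%. For GABAergic progenitor-like cells against interneurons the share was 42.4%, and it was 58.3% with 1 more marker gene, 54.2% with thinned cells, 54.1% in deeper cells, 53.0% with only the compared types and 52.0% without the filter. It moved from 45.1% to 55.5% for RGC-like against excitatory cells with 1 more marker gene, and from 43.5% to 53.9% for IPC-like against excitatory cells without the filter. Depth limits *Grik4* most, with 497 and 823 UMIs in all kept cells.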
